A study of Mus musculus with 4 samples.

Results

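The pleiotrophin, midkine and ALK pathway was described here through 10 genes, which were the rows with the symbols Ptn, Mdk, Ptprz1, Alk, Alkal1, Alkal2, Ltk, Sdc1, Sdc4 and Ncl among the 32285 genes counted in each of 4 libraries. RNA was measured by droplet-based 3′ sequencing in single CD45-negative stromal cells of the thymus from untreated C57BL/6 mice aged 6 months. Both WT libraries came from mice labelled wild type, and both Z/Z libraries from mutants with a LacZ allele at both copies of Foxn1, a gene for a transcription factor that thymic epithelial cells (TECs) need. The methods describe thymi of 10 or more mice pooled per preparation and depletion of CD45-positive cells, so a library is a pool and not an animal. The labels give the mice as male in one field and female in another, and the chemistry is named as more than one version.

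Pleiotrophin and midkine are small secreted proteins that bind heparin and share one fold. They bind the chondroitin sulfate chains of the receptor phosphatase PTPRZ1, the heparan sulfate chains of syndecans, and nucleolin at the cell surface. ALK and its relative LTK are receptor tyrosine kinases whose activating ligands are ALKAL1 and ALKAL2, and pleiotrophin and midkine have also been described as acting on ALK. In the thymus, fibroblasts and other mesenchymal cells are known sources of growth factors for the epithelium.

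The libraries held 1192 to 5558 called cells and 8468086 to 50705511 unique molecular identifiers (UMIs, one per captured RNA molecule). After filters 9846 cells were kept, which were 1458 (WT 1), 456 (WT 2), 4455 (Z/Z 1) and 3477 (Z/Z 2). WT 2 had the fewest UMIs in all and had 107 epithelial cells and 7 mural cells. The limits on genes and mitochondrial UMIs passed 1517 of 2731 and 474 of 1192 called cells in WT. In Z/Z they passed 4636 of 5558 and 3618 of 4500. Kept epithelial cells had medians of 15599.5 and 18795 UMIs in WT against 6615 and 6919 in Z/Z. Depth per cell thus differed along with genotype, and only thinning set it equal. Both libraries of a genotype shared cell barcodes, 202 in WT and 249 in Z/Z, whereas libraries of different genotype shared 0 to 6. Of kept cells, 32.9% in WT 2 had a shared barcode against 1.90% to 3.82% in the other libraries, and among epithelial cells these were 56 of 107 in WT 2, 48 of 540 in WT 1, 128 of 1926 in Z/Z 1 and 60 of 1536 in Z/Z 2. Of 17 barcodes kept in both WT libraries all 17 fell into the same lineage, with a median of 1719 UMIs in WT 1 and 48262 in WT 2. Of 26 kept in both Z/Z libraries 21 did. Results are therefore given with and without these cells where it matters. Leaving them out also removes deep cells. Epithelial cells with a shared barcode had a median of 59778.5 UMIs against 14321 without in WT 1, and 31452.5 against 5952 in WT 2. In Z/Z 1 and Z/Z 2 these were 39597 against 5683 and 46354.5 against 6148. The 7 TEC markers summed to 7889 to 10987 counts per 1000000 UMIs (CPM) in the epithelial sums and to 34.0 to 102 in the fibroblast sums, and the 5 fibroblast markers to 12328 to 16028 CPM in fibroblasts and 106 to 278 in epithelial cells. Foxn1 itself was 91.7 and 109 CPM in WT and 53.9 and 70.8 CPM in Z/Z epithelial sums (log2 fold change −0.68 ± 0.19 SE, edgeR adjusted p = 0.0586), and reads on the inserted LacZ sequence were not part of the counted genes.

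UMIs were summed per library over epithelial cells, fibroblasts, endothelial cells and mural cells (pericytes and vascular smooth muscle), and libraries were the replicates, with n = 2 for each genotype. Given the barcodes shared within a genotype, the independence of its 2 libraries is uncertain and was not tested. Levels are UMIs of a gene per 1000000 UMIs of that sum (CPM) and are compared between cells or libraries, never between genes. In such sums a change in the mix of cell classes and a change of RNA within a class cannot be told apart, so levels by cluster are given after each gene. The genes were left out of the clustering that made the lineages and clusters.

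Pleiotrophin was a fibroblast product in all 4 libraries. Ptn (chr6:36714929-36810220, minus strand, GRCm38) had 2067 CPM (WT 1), 2454 CPM (WT 2), 1714 CPM (Z/Z 1) and 1169 CPM (Z/Z 2) in fibroblasts. In epithelial cells the levels were 17.1, 82.8, 181 and 188 CPM in the same order. The fibroblast level was above the epithelial level in every library, by a log2 difference of 4.72 ± 0.60 (SE, edgeR with the library as a block, adjusted p = 7.12e-06, 4 of 4 libraries), in a comparison in which 54.7% of 14574 genes were called. Fibroblasts held 98.6% and 96.6% of all Ptn UMIs in the WT libraries, and 80.9% and 70.1% in the Z/Z libraries. Epithelial cells held 1.12% and 2.7998% in WT against 13.7% and 26.4% in Z/Z, of which aaTEC2-like cells alone gave 7.28% and 11.3%. Fibroblasts also exceeded mural cells by 5.04 ± 0.64 on the log2 scale (adjusted p = 1.69e-05 by edgeR, 34.8% of genes called) and endothelial cells by 7.98 ± 0.74 (adjusted p = 3.19e-07, 41.1% called). Mural cells had 35.05, 0, 125 and 56.3 CPM, where the value of 0 in WT 2 comes from 7 cells and allows up to 63.0 CPM.

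**Figure D1:**
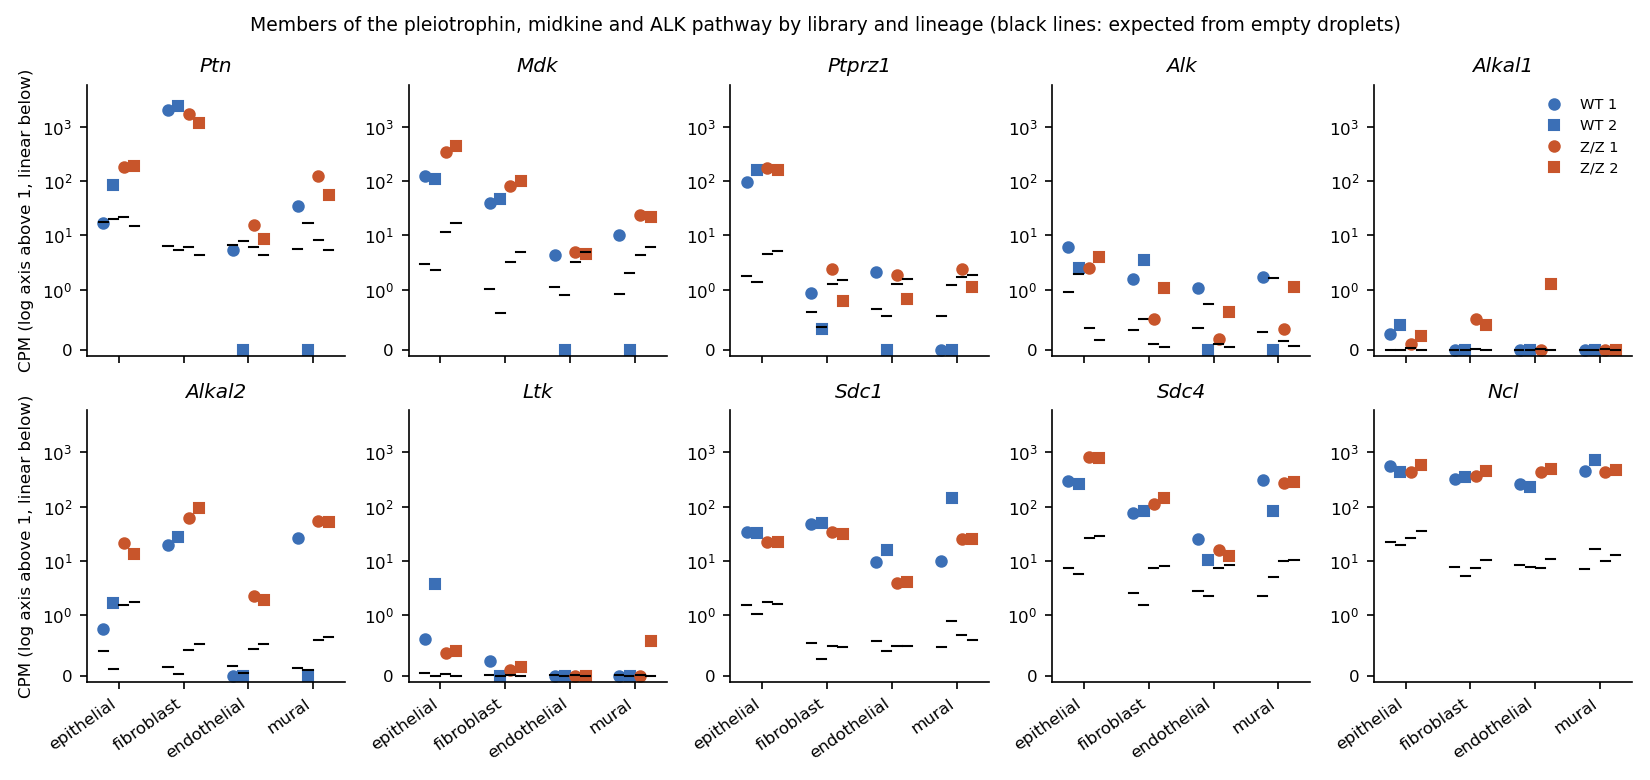
Level of each of the 10 genes in the summed UMIs of 4 lineages, in CPM on an axis that is logarithmic above 1 and linear below, with a point for each library and a black line for the level expected from the RNA in empty droplets. Ptn is highest in fibroblasts and Ptprz1 in epithelial cells in every library, whereas Ptn in epithelial cells of WT 1 lies on its empty-droplet line.

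In the tested sums, epithelial Ptn was 2.12 ± 0.69 higher in Z/Z on the log2 scale, short of the threshold (edgeR adjusted p = 0.0805). Both WT libraries lay below both Z/Z libraries, yet they differed from each other by more than the Z/Z libraries did. RNA from broken cells, read from empty droplets, accounted for 6.65% to 8.72% of the epithelial UMIs. It predicted 17.8 CPM of Ptn in WT 1, where 17.1 were measured, so the summed level of that library was at background. Its Ptn UMIs were not spread evenly over the cells. In a coarser clustering, 50 of the 199 were in 7 aaTEC1-like cells and 16 in 10 aaTEC2-like cells. Whether these UMIs were background was not tested. The predicted values in the other libraries were 19.6, 21.3 and 14.7 CPM, well under the measured ones. Leaving out WT 1 gave a difference of 1.27 (adjusted p = 0.0103) and leaving out WT 2 gave 3.61 (adjusted p = 0.00241). When each cell was thinned to 2000 UMIs before summing, the difference was 2.53 (edgeR adjusted p = 0.000192), and without aaTEC2-like cells it was 1.40 (adjusted p = 0.214). The fibroblast marker sum in epithelial cells was 136 and 106 CPM in WT and 211 and 278 CPM in Z/Z, with none of the 5 markers at 0, and its part in the Ptn levels was not tested.

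The share of epithelial cells with a Ptn UMI, after thinning each cell to 2000 UMIs, was 4.59% in WT 1 (95% Clopper-Pearson interval 2.96 to 6.75), 6.67% in WT 2 (2.72 to 13.3), 23.7% (interval 21.8 to 25.7) for Z/Z 1 and 22.8% (interval 20.7 to 25.1) for Z/Z 2. Thymocytes, which should lack the gene, had a share of 0% to 3.13% over the libraries at the same depth. Both Z/Z shares lay above both WT shares, with a mean difference of 17.6 percentage points, and an exact permutation test gave p = 0.333, the smallest that 2 libraries against 2 allow. Such intervals cover counting error only. Among aaTEC2-like cells the share was 50.5% and 47.9% in Z/Z and 23.1% of 13 cells in WT 1, and WT 2 had no cell of that class.

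Fibroblast Ptn was −0.58 ± 0.21 in Z/Z on the log2 scale and was not called (edgeR adjusted p = 0.192), although both Z/Z levels were under both WT levels. Without Z/Z 1 it was called (−0.89, adjusted p = 0.00101). Clusters of fibroblasts differed far more than genotypes. The 661 cells of fibroblast cluster 3, a capsular fibroblast-like cluster led by Pi16, had 6.40, 5.14, 6.26 and 20.7 CPM of Ptn in WT 1, WT 2, Z/Z 1 and Z/Z 2. Fibroblast cluster 5, led by Postn and Mgp, had 3444 CPM in WT 1 and 3416 and 3170 CPM in Z/Z. Cluster 4, led by Csmd1 and Apod, held 261 and 111 cells in WT but 4 and 9 in Z/Z, and its Ptn level was 3375 and 3242 CPM in WT. Cluster 1, led by Hspa1a and Hspa1b, held 15 and 3 cells in WT against 547 and 138 in Z/Z, with 3065 and 2887 CPM of Ptn in Z/Z. Of these Ptn-rich clusters, 4 and 1 were each almost entirely from one genotype. Cluster 2, led by Mt1 and Inmt, had at least 20 cells in every library, and there Ptn was 2036 and 2256 CPM in WT against 1074 and 1203 CPM in Z/Z, so the groups did not overlap within that cluster.

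**Figure D2:**
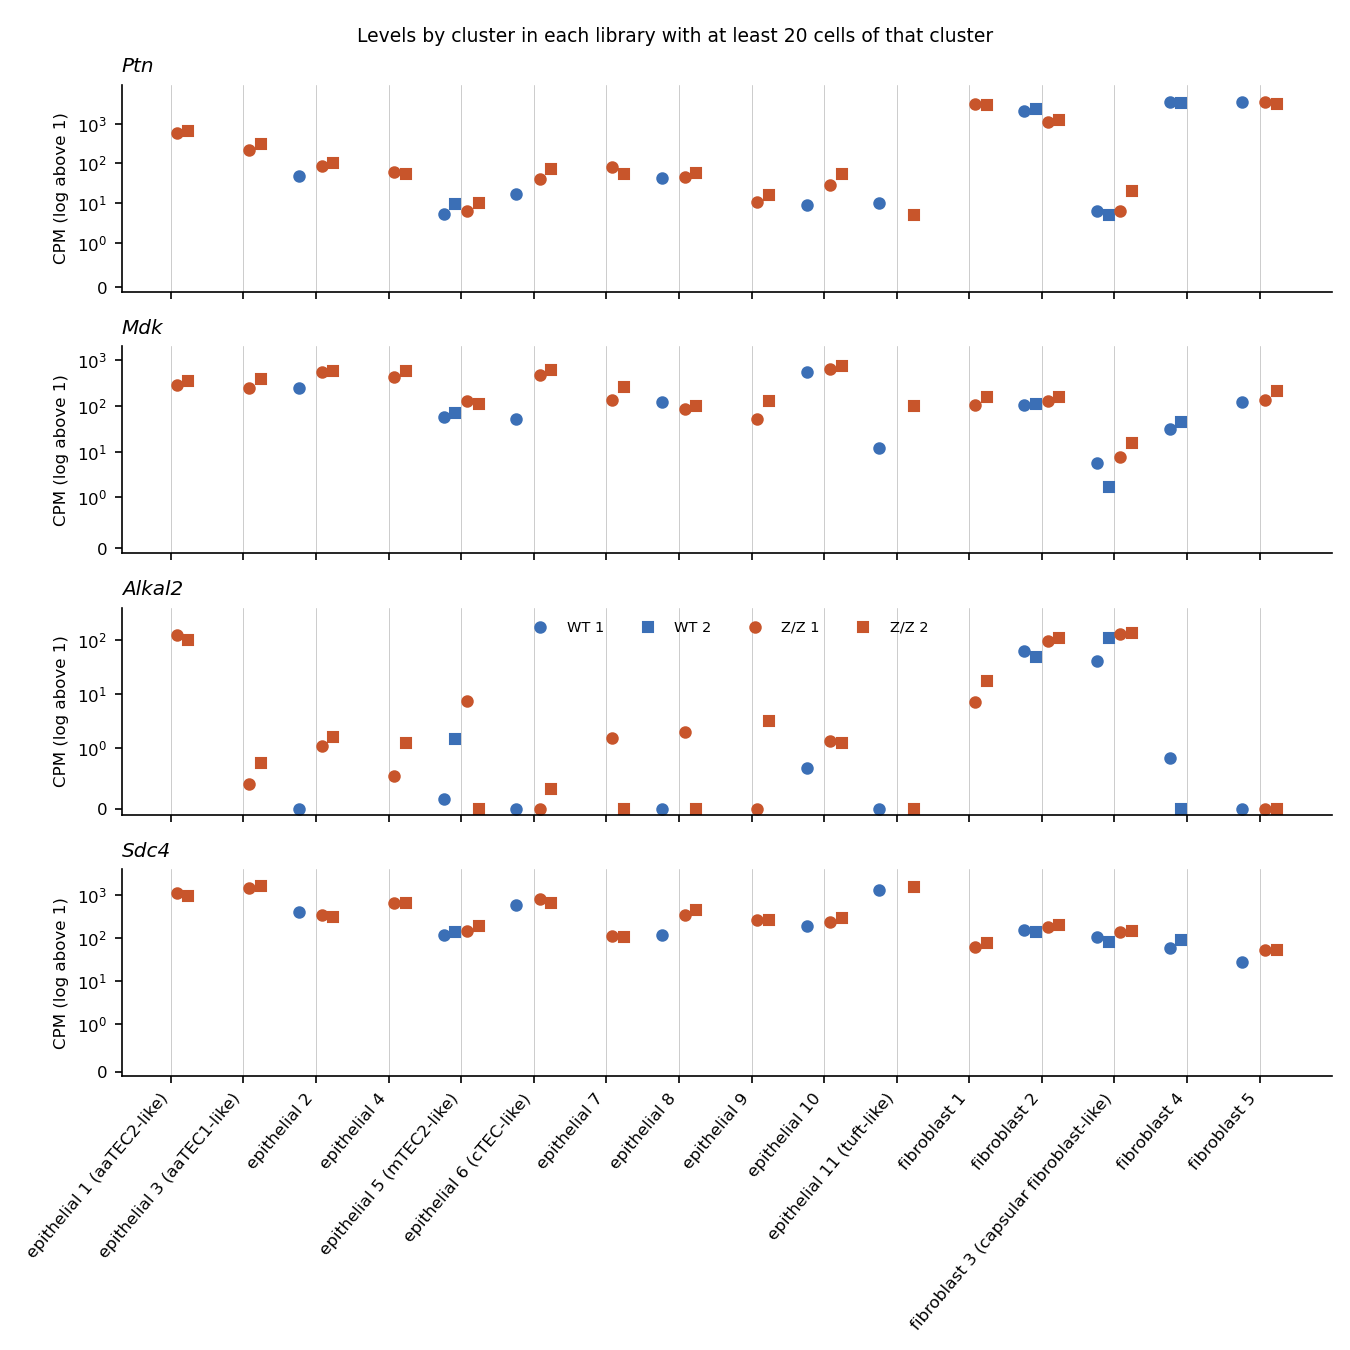
Level of Ptn, Mdk, Alkal2 and Sdc4 in CPM (logarithmic above 1, linear below) in 11 epithelial and 5 fibroblast clusters, with a point for each library that has at least 20 cells of the cluster. Ptn lies between 5.14 and 20.7 CPM in the capsular fibroblast-like cluster and at 2887 CPM or more in fibroblast clusters 1, 4 and 5, and Alkal2 is near or at 0 in most epithelial clusters other than the aaTEC2-like one.

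Within the epithelium Ptn followed the same order in both Z/Z libraries. aaTEC2-like cells, an age-associated class with few Epcam UMIs and with Vim, had 574 and 649 CPM. aaTEC1-like cells, marked by Cldn3 and Plet1, had 216 and 304 CPM, and in WT this cluster held 7 and 10 cells. In a coarser clustering, aaTEC1-like cells held 50 of 199 epithelial Ptn UMIs in WT 1 and 175 of 201 in WT 2. In Z/Z 1 and Z/Z 2 they held 1053 of 3435 and 1216 of 3244. No alternative left these cells out, and their part in the epithelial Ptn difference was not tested. mTEC2-like cells, the Aire-expressing medullary class, had 5.27, 9.54, 6.49 and 10.2 CPM in WT 1, WT 2, Z/Z 1 and Z/Z 2. These mTEC2-like values overlapped between genotypes and were below the level expected from empty droplets over all epithelial cells. Across 81 sums of library and cell class, the genes whose log2(CPM + 1) correlated most with that of Ptn were Matn2 (Pearson r = 0.788), Gpm6b (0.786) and Serpine2 (0.770), a description over sums that share libraries.

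Midkine had the opposite main source and was higher in the Z/Z sums of both lineages. Mdk (chr2:91929805-91932297, minus strand) had 125 CPM (WT 1), 111 CPM (WT 2), 343 CPM (Z/Z 1) and 449 CPM (Z/Z 2) in epithelial cells. Both Z/Z libraries were well above both WT libraries. In fibroblasts the levels were 39.8, 46.4, 82.4 and 102 CPM, again without overlap between genotypes. The epithelial level exceeded the fibroblast level in 4 of 4 libraries, by 1.45 ± 0.21 on the log2 scale (edgeR adjusted p = 2.45e-05), and epithelial cells held 66.3% to 89.0% of all Mdk UMIs. Endothelial cells had 0 to 4.86 CPM, 5.73 ± 0.31 log2 units under epithelial cells (edgeR adjusted p = 9.55e-10, 50.2% of genes called).

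Epithelial Mdk was 1.89 ± 0.18 higher in Z/Z on the log2 scale (edgeR adjusted p = 0.00674). In that comparison 8 of the 10 genes passed the filter on low counts and 3 were called, all higher (Mdk, Alkal2 and Sdc4), where 21.2% of 18829 genes were called and 9.49% of the 18829 were higher. Groups did not overlap for 6 of the 8 genes, against 67.3% of all genes tested. Leaving out cells of shared barcodes left 51 epithelial cells in WT 2, with 62 of its 269 epithelial Mdk UMIs. The Mdk difference was then 1.59 (edgeR adjusted p = 0.119) and only 1 gene of all was called, so none of the 3 calls held. With only the copy of fewer UMIs of each shared barcode left out, an alternative chosen after seeing the data, Mdk was 1.89 (edgeR adjusted p = 0.00687). Without aaTEC2-like cells it was 1.93 (adjusted p = 0.00891).

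Fibroblast Mdk was 1.17 ± 0.18 higher in Z/Z (edgeR adjusted p = 0.0102). Here 7 of the 10 genes were tested and 2 were called, Mdk and Alkal2, both higher, where 2.87% of 13886 genes were called and 1.69% were higher. Groups did not overlap for any of the 7, against 50.5% of genes without overlap. Without shared barcodes the difference was 1.22 (adjusted p = 0.0298), and without WT 1 it was 1.04 and no longer called (adjusted p = 0.0810). The TEC marker sum in fibroblasts was 61.3 and 34.0 CPM in WT and 72.5 and 102 CPM in Z/Z, with 1 of 7 markers at 0 in WT 2, and its part in the Mdk levels was not tested. The level of Mdk expected from empty droplets in fibroblasts was 0.618 to 4.82 CPM, and with these UMIs subtracted the difference was 1.13 (adjusted p = 0.00913).

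After thinning to 2000 UMIs, 13.0% and 17.1% of epithelial cells had a Mdk UMI in WT against 41.8% and 49.2% in Z/Z, and in fibroblasts the shares were 6.40% and 6.35% in WT against 15.2% and 18.7% in Z/Z. Thymocytes had 0% in 3 libraries, with only 3 cells in Z/Z 1, and 3.13% in Z/Z 2. Both lineages showed higher shares in both Z/Z libraries, and the exact permutation p was 0.333 for each, the smallest possible.

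Mdk was spread over more epithelial clusters than Ptn. Epithelial cluster 10, led by Ccl21a and Krt17, had 539 CPM in WT 1 and 646 and 748 CPM in Z/Z. cTEC-like cells, the cortical class marked by Prss16 and Psmb11, had 51.5 CPM in WT 1 (67 cells) and 464 and 613 CPM in Z/Z, while WT 2 had only 8 such cells. mTEC2-like cells had 57.8 and 69.7 CPM in WT and 129 and 112 CPM in Z/Z, without overlap. This was the epithelial cluster with at least 20 cells in all 4 libraries. It held 218 of 540 and 40 of 107 epithelial cells in WT, against 47 of 1926 and 65 of 1536 in Z/Z. Its median was 26762.5 UMIs per cell, and its part in the epithelial Mdk and Sdc4 differences was not tested. Epithelial cluster 8, whose leading genes are Gm26917 and Lars2, was lower in Z/Z, with 123 CPM in WT 1 and 85.0 and 97.5 in Z/Z. aaTEC2-like and aaTEC1-like cells had mean levels of 317 ± 50.6 and 314 ± 103 CPM (SD, n = 2 Z/Z libraries), which do not differ beyond their spread. In fibroblasts, cluster 2 had 103 and 109 CPM in WT and 127 and 153 CPM in Z/Z, the capsular-like cluster had 1.71 to 15.4 CPM, and cluster 4, nearly absent from Z/Z, had 30.7 and 44.1 CPM. The genes most like Mdk over the 81 sums were Fzd10os (r = 0.816), Sox9 (0.800) and Pfn2 (0.797).

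Of the ALK ligands, ALKAL2 was detected in all 4 lineages and ALKAL1 hardly at all. Alkal1 (chr1:6359218-6394731, plus strand) had 1 to 14 UMIs per library over all kept cells, and it passed no filter for testing. Alkal2 (chr12:30884322-30893854, plus strand) had 0.775 CPM (WT 1), 1.65 CPM (WT 2), 21.1 CPM (Z/Z 1) and 13.5 CPM (Z/Z 2) in epithelial cells, from 9, 4, 401 and 233 UMIs. Both WT libraries were close to the limit of detection and both Z/Z libraries were far above them. The log2 difference was 4.24 ± 0.51 (edgeR adjusted p = 0.00860), and 4.77 without shared barcodes, when WT 2 had 0 UMIs and the call was lost (adjusted p = 0.106).

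In Z/Z, nearly all epithelial Alkal2 came from aaTEC2-like cells. These were 13 of 540 epithelial cells in WT 1, 0 of 107 in WT 2, 552 of 1926 in Z/Z 1 and 382 of 1536 in Z/Z 2. They gave 28.9% of all Alkal2 UMIs in Z/Z 1 and 21.3% in Z/Z 2, where all epithelial cells gave 30.4% and 22.4%. The level in the aaTEC2-like epithelial cluster 1 (538 and 358 cells in Z/Z) was 120 and 98.6 CPM in Z/Z. By contrast, aaTEC1-like, cTEC-like and mTEC2-like cells had 0 to 7.57 CPM in every library with at least 20 cells. Without aaTEC2-like cells the epithelial difference was 0.71 (adjusted p = 0.643), also an alternative chosen after seeing the data. The share of aaTEC2-like cells with an Alkal2 UMI after thinning was 18.3% and 14.1% in Z/Z and 1 of 13 cells, 7.69%, in WT 1. In thymocytes it was 0% in all 4 libraries, with only 3 cells in Z/Z 1.

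In fibroblasts Alkal2 was 19.8 and 27.3 CPM in WT and 62.7 and 95.1 CPM in Z/Z. All Z/Z values were above all WT values, and the log2 difference was 1.84 ± 0.25 (edgeR adjusted p = 0.00590). It was called without shared barcodes (2.27, adjusted p = 0.0174) and without the capsular-like cluster (2.74, adjusted p = 0.00275), but not without WT 1 (1.58, adjusted p = 0.0626). Its distribution over fibroblast clusters 2 to 5 was close to the reverse of that of Ptn. The capsular-like cluster had 40.5 and 110 CPM in WT and 129 and 134 CPM in Z/Z, and cluster 2 had 62.4 and 48.8 CPM in WT and 96.5 and 108 CPM in Z/Z. Neither cluster showed overlap between genotypes, although WT 2 came near the Z/Z values in the capsular-like cluster. Cluster 4 had 0.836 and 0 CPM in the WT libraries that hold nearly all of it, and no UMI was found in cluster 5 in any library with at least 20 cells. The Ptn-rich clusters 4 and 5 were therefore nearly free of Alkal2, and cluster 2 held both. Over all cells of a lineage, fibroblasts exceeded epithelial cells by 3.17 ± 0.41 (adjusted p = 9.47e-06) and endothelial cells by 5.51 ± 0.62 (adjusted p = 2.76e-06 by edgeR), and the difference from mural cells was 0.43 ± 0.45 (adjusted p = 0.502). In mural cells Alkal2 was 26.7, 0, 54.3 and 51.8 CPM, and in both WT libraries of endothelial cells it was at 0, which allows up to 3.20 and 15.8 CPM. The Z/Z endothelial levels were 2.24 and 1.88 CPM, from 12 and 9 UMIs, where empty droplets predicted 0.433 and 0.529 CPM.

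**Figure D3:**
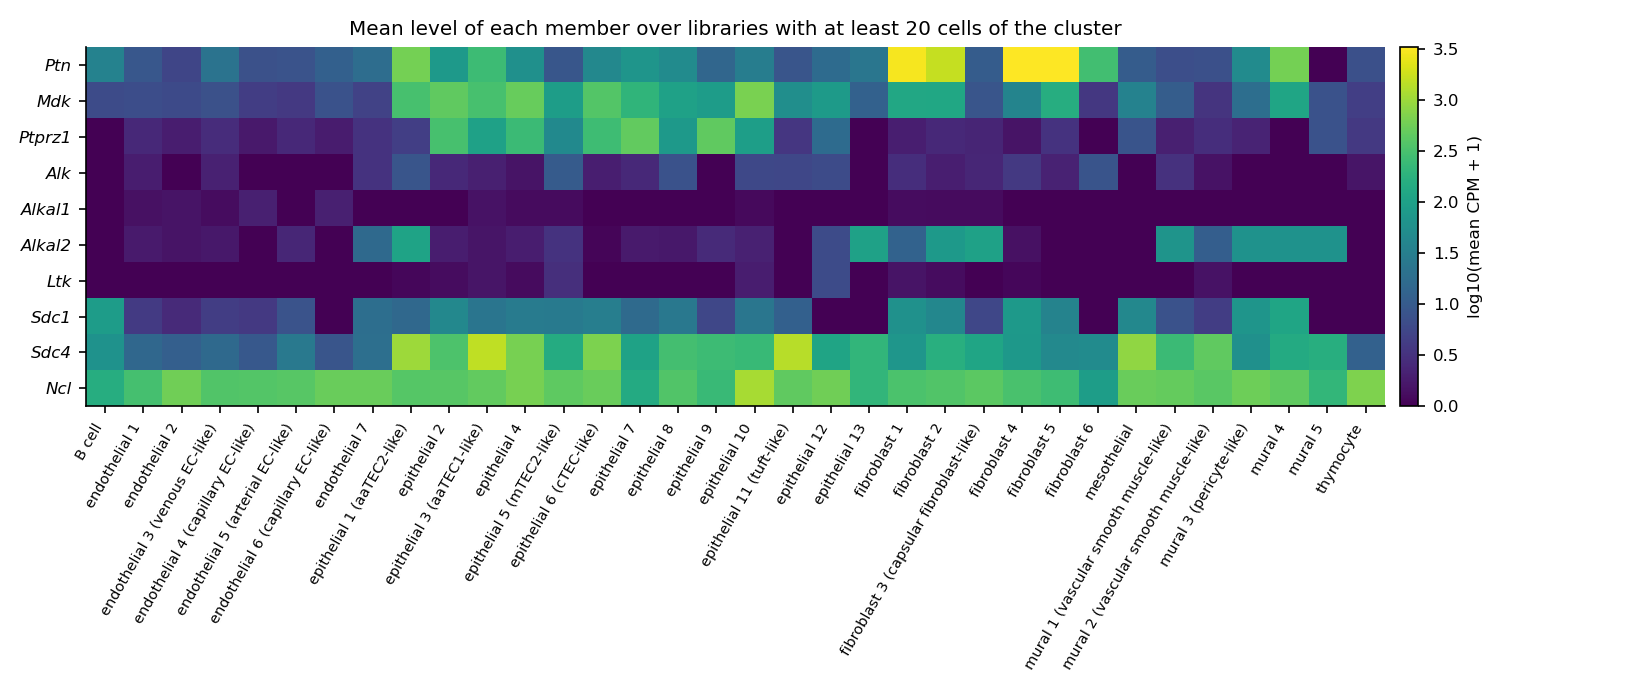
Mean level of each of the 10 genes over the libraries with at least 20 cells of a cluster, as log10(mean CPM + 1), with genes in rows and clusters in columns, to be read along a row. The rows of Ptn and Alkal2 are bright in different fibroblast clusters, and the rows of Alkal1 and Ltk are dark throughout.

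Promoter sequences of the genes were read for the letters GACGC, the core that FOXN1 is known to bind, on both strands (GCGTC on the other), in the 250 bases before the RefSeq start on GRCm38.p6. Of the 10 genes 8 had an entry, and 4 of these held a match (Ptprz1, Alk, Alkal2 and Ltk), where 22.6% of all 32851 promoters of that length did. The windows of Ptn (chr6:36810180-36810429, minus strand), Alkal2 (chr12:30884074-30884323, plus strand) and Sdc4 (chr2:164443189-164443438, minus strand) are shown because these genes have the largest differences between genotypes among the entries. Each is written 5′ to 3′ toward the start, with the match in capitals. The match of Alkal2 begins 217 bases before the start and the other windows hold none. A match is a run of letters, not a measured binding site.
Ptn: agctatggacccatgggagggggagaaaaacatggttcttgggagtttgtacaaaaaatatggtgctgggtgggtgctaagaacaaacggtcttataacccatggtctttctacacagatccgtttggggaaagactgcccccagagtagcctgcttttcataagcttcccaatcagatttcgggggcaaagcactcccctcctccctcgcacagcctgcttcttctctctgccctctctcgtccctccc
Alkal2: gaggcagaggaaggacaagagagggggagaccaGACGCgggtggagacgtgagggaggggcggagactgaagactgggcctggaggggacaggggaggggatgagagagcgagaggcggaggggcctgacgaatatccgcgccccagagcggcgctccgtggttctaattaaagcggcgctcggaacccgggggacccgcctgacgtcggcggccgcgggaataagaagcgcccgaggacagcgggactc
Sdc4: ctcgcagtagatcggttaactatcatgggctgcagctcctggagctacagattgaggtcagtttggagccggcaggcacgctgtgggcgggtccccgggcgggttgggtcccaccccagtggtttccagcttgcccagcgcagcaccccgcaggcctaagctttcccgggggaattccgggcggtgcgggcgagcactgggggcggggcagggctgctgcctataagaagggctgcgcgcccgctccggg

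Among receptors, PTPRZ1 was an epithelial product. Ptprz1 (chr6:22875502-23052916, plus strand) encodes the receptor phosphatase that pleiotrophin and midkine bind. It had 94.0, 158, 170 and 162 CPM in epithelial cells of WT 1, WT 2, Z/Z 1 and Z/Z 2, and 0.354 to 2.37 CPM in fibroblasts. The fibroblast values were near those expected from empty droplets, 0.379 to 1.52 CPM. Epithelial cells held 95.9% to 99.2% of all its UMIs, and their level exceeded those of fibroblasts, endothelial and mural cells by 6.55 ± 0.31, 6.53 ± 0.38 and 6.24 ± 0.42 on the log2 scale (edgeR adjusted p at most 1.65e-08, 4 of 4 libraries in each). The genotype difference in epithelial cells was 0.56 ± 0.26 and was not called (edgeR adjusted p = 0.182). It rested on 1 library, being 1.01 without WT 2 (called, adjusted p = 0.0180) and −0.56 without shared barcodes, when the 51 remaining cells of WT 2 had 496 CPM.

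The receptor was unevenly placed in the epithelium. Epithelial clusters 7 and 9, both led by Grip1 and Rbms3 among other genes and low in UMIs per cell, had mean levels of 478 ± 82.9 and 464 ± 108 CPM (SD, n = 2 Z/Z libraries), which overlap. Cluster 2, led by Jun and Fos, had 306 CPM in WT 1 and 317 and 313 CPM in Z/Z. cTEC-like cells had 180 CPM in WT 1 and 314 and 302 CPM in Z/Z, and mTEC2-like cells had 39.0 and 44.0 CPM in WT and 49.8 and 49.1 CPM in Z/Z. aaTEC2-like cells, the epithelial class with the most Ptn and Alkal2, had 3.15 and 3.72 CPM, under the 4.51 and 5.24 CPM that empty droplets predict for all epithelial cells of these libraries. Tuft-like cells had 0 CPM in WT 1 and 5.11 in Z/Z 2. After thinning, 0.726% and 0.266% of aaTEC2-like cells in Z/Z had a Ptprz1 UMI, against 21.1% and 20.0% of all epithelial cells in these libraries.

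The tyrosine kinase receptors had few UMIs. Alk (chr17:71868972-72604627, minus strand) had 6.03, 2.47, 2.48 and 4.00 CPM in epithelial cells, from 70, 6, 47 and 69 UMIs, and the genotypes overlapped. The log2 difference was −0.34 ± 0.54 (edgeR adjusted p = 0.689), and its sign changed in several alternatives. Of Alk UMIs in Z/Z, 34.5% and 22.9% were from aaTEC2-like cells, and mTEC2-like cells had 47, 3, 7 and 31 UMIs. In fibroblasts Alk had 13, 10, 6 and 8 UMIs, with a difference of −1.52 ± 0.71 (adjusted p = 0.305). Ltk (chr2:119751320-119760431, minus strand) had 8 to 10 UMIs per library in all, 77.8% to 90% of them in epithelial cells, and was not tested.

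Syndecan-4 was higher in the summed Z/Z epithelium. Sdc4 (chr2:164424247-164443887, minus strand), a heparan sulfate proteoglycan of the cell surface, had 299.8 CPM (WT 1), 263 CPM (WT 2), 810 CPM (Z/Z 1) and 785 CPM (Z/Z 2). Replicates were close and genotypes were far apart, with a log2 difference of 1.65 ± 0.16 (edgeR adjusted p = 0.00674). The call was lost without shared barcodes (1.31, adjusted p = 0.119) and held without aaTEC2-like cells (1.57, adjusted p = 0.00907). No alternative left out aaTEC1-like cells. In fibroblasts the levels were 77.0 and 84.9 CPM in WT and 112 and 145 CPM in Z/Z, with a difference of 0.73 ± 0.17 that was not called (edgeR adjusted p = 0.0608) except without Z/Z 1 (0.91, adjusted p = 0.00350). Epithelial cells exceeded fibroblasts by 1.91 ± 0.33 (adjusted p = 0.000135 by edgeR), and mural cells exceeded fibroblasts by 1.26 ± 0.34 (adjusted p = 0.00993). The share of epithelial cells with a Sdc4 UMI after thinning was 30.8% and 36.2% in WT against 55.8% and 54.0% in Z/Z. Among thymocytes it was at most 2.94%, with only 3 cells in Z/Z 1.

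By cluster, the size of the Sdc4 difference varied. Epithelial cluster 8 had 113 CPM in WT 1 against 340 and 442 CPM in Z/Z. mTEC2-like cells, a larger part of the WT epithelium as given for Mdk, had 113 and 135 CPM in WT and 146 and 190 CPM in Z/Z. cTEC-like cells had 583 CPM in WT 1 and 808 and 649 CPM in Z/Z, and cluster 2 had 401 CPM in WT 1 and 331 and 309 CPM in Z/Z, the lower level being that of Z/Z. The highest levels were those of aaTEC1-like cells with 1432 and 1596 CPM in Z/Z, tuft-like cells with 1300 CPM in WT 1 and 1527 in Z/Z 2, and aaTEC2-like cells with 1103 and 908 CPM in Z/Z. aaTEC1-like and tuft-like means, 1514 ± 116 and 1413 ± 161 CPM (SD, n = 2), did not differ beyond their spread. aaTEC1-like cells were 7 and 10 cells in WT against 218 and 169 in Z/Z. Clustered at resolution 0.5, they held 6977 of 15376 epithelial Sdc4 UMIs in Z/Z 1 and 6379 of 13524 in Z/Z 2. In WT 1 and WT 2 they held 99 of 3482 and 142 of 639, and their part in the difference was not tested. Klf5 (r = 0.796), Hspb8 (0.788) and Ddr1 (0.781) were most like Sdc4 over the 81 sums.

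Between genotypes, syndecan-1 and nucleolin were not called by edgeR in any lineage with the count filter. Sdc1 (chr12:8771323-8793715, plus strand), another heparan sulfate proteoglycan and a known plasma cell marker, had 33.5 and 33.4 CPM in WT and 22.5 and 21.9 CPM in Z/Z epithelial cells, and 48.3, 50.6, 33.9 and 31.6 CPM in fibroblasts. All WT values were above all Z/Z values in both lineages, with log2 differences of −0.44 ± 0.18 and −0.52 ± 0.17 that did not pass (edgeR adjusted p = 0.133 and 0.144). Fibroblasts exceeded epithelial cells by 0.90 ± 0.28 (edgeR adjusted p = 0.0124), a call lost without Z/Z 1 (adjusted p = 0.0752) or Z/Z 2 (adjusted p = 0.105). B cells left in the libraries had a mean of 86.5 ± 8.05 CPM (SD, n = 2) of Sdc1, and fibroblast cluster 4 had 88.7 and 71.0 CPM in WT. Ncl (chr1:86344719-86359400, minus strand), which encodes nucleolin, was 559, 434, 440 and 585 CPM in epithelial cells and 231 to 714 CPM over all lineages. Ncl was called in none of the 6 pairs of lineages, in which 54.7% (epithelial and fibroblast), 50.2% (epithelial and endothelial), 46.2% (epithelial and mural), 41.1% (fibroblast and endothelial), 34.8% (fibroblast and mural) and 37.4% (endothelial and mural) of genes were called. It was 0.19 ± 0.21 and 0.33 ± 0.17 higher in Z/Z epithelial cells and fibroblasts (edgeR adjusted p = 0.550 and 0.345). Gas1, Pcyox1 and Gstm5 were most like Sdc1, with r from 0.661 to 0.663.

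**Figure D4:**
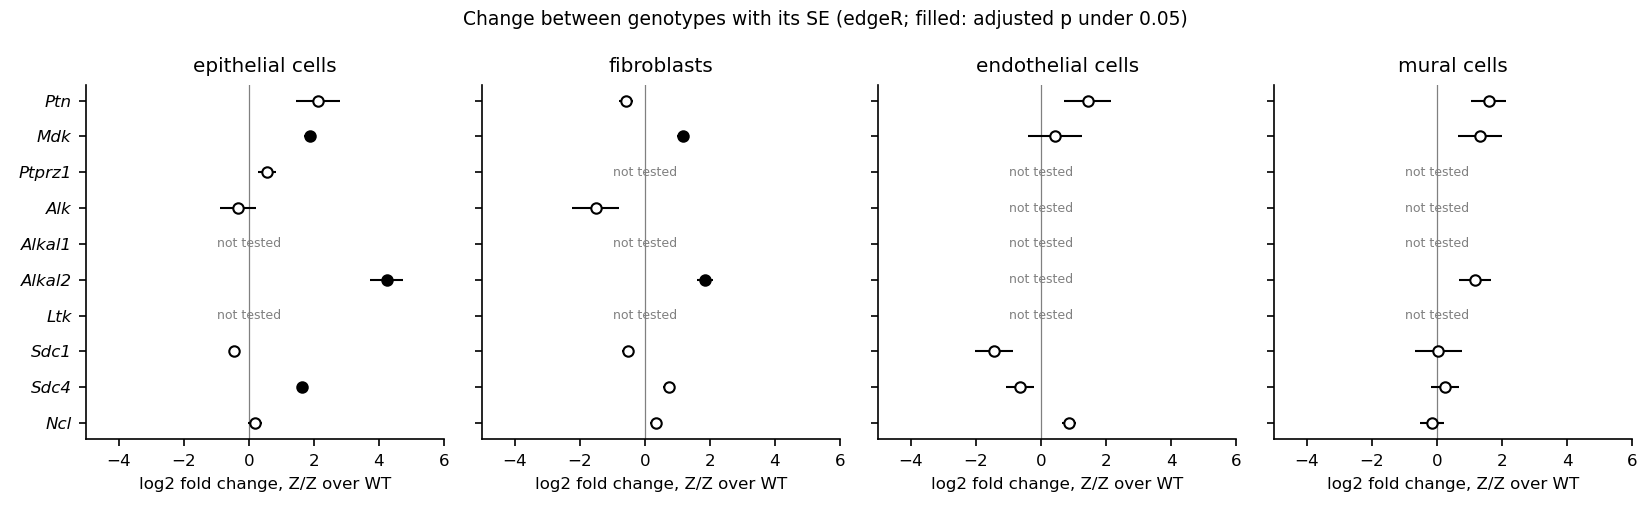
Log2 fold change of each gene between genotypes (Z/Z over WT) in 4 lineages with its standard error, where filled points have an edgeR adjusted p under 0.05 and genes under the count filter are marked as not tested. Mdk and Alkal2 are filled to the right of 0 in epithelial cells and fibroblasts, Sdc4 in epithelial cells, and no point is filled in endothelial or mural cells.

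In endothelial cells 5 of the 10 genes were tested and in mural cells 6, and no member was called in either by edgeR, where 1.77% of 11406 and 0.0223% of 8967 genes were. Unadjusted p-values were under 0.05 for 2093 and 616 genes of all in these lineages, and WT 2 contributed 25 and 7 cells. Endothelial Ncl was 265 and 231 CPM in WT and 427 and 491 CPM in Z/Z, and both DESeq2 and edgeR without the count filter called it higher.

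The genotype difference itself was compared between lineages by the interaction of genotype and lineage. For Ptn it was 2.97 ± 0.58 higher in epithelial cells than in fibroblasts on the log2 scale (edgeR adjusted p = 0.00302), in a test that called 13.7% of 14574 genes. Both Z/Z libraries lay above both WT libraries in epithelial cells and below both in fibroblasts, although neither lineage alone passed. The value was 3.11 without shared barcodes (adjusted p = 0.00443) and 2.12 without aaTEC2-like cells and the capsular-like cluster (adjusted p = 0.0435). For Alkal2 the difference was 2.30 ± 0.58 (edgeR adjusted p = 0.0155), and it became −1.73 (adjusted p = 0.354) without those cells. Neither Mdk (0.64 ± 0.27, adjusted p = 0.127 by edgeR) nor Sdc4 (0.87 ± 0.38, adjusted p = 0.155) was called, though both were without WT 1 (adjusted p = 0.0488 and 0.0355). Against fibroblasts, 0.261% of genes were called for endothelial cells and 0.0755% for mural cells, and no member was among them.

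**Figure D5:**
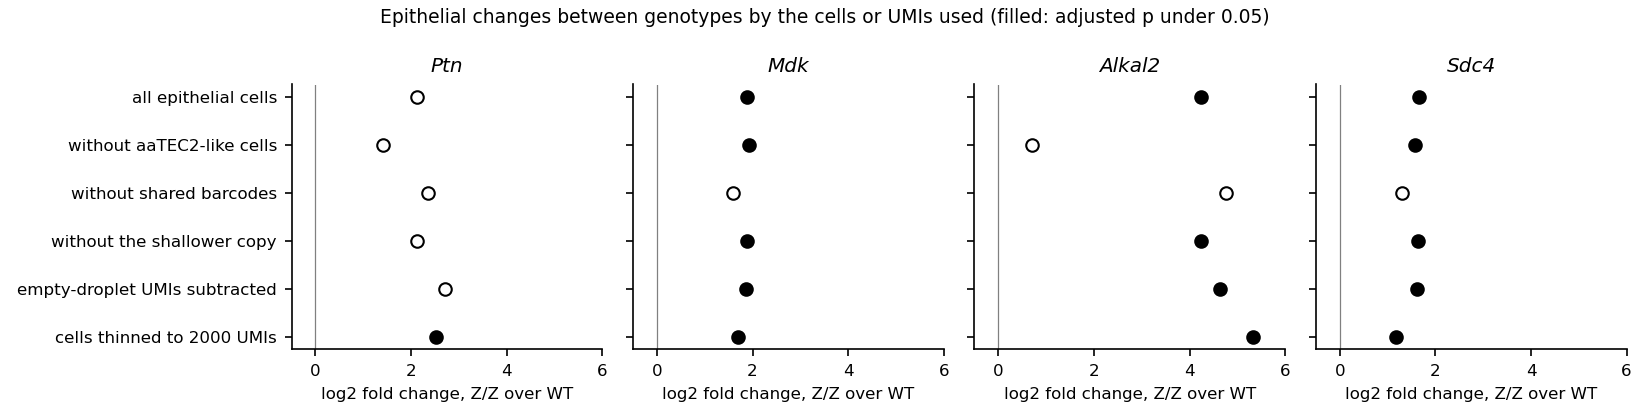
Epithelial log2 fold change (Z/Z over WT) of Ptn, Mdk, Alkal2 and Sdc4 for different choices of cells or UMIs, with filled points for an edgeR adjusted p under 0.05. Leaving out aaTEC2-like cells moves Alkal2 from 4.24 to 0.71 and leaves Mdk and Sdc4 near their first values, and leaving out shared barcodes empties the points of Mdk, Alkal2 and Sdc4, while that of Ptn is empty already with all cells.

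A set of 4 lists of genes around these ligands and receptors gave a wider view of the epithelium, to be read against the 21.2% of all genes called there and the 9.49% that were higher. Without shared barcodes 1 gene of all was called, a lower one, so none of the higher calls of these lists held. Of 13 other receptors and co-receptors, 3 were higher in Z/Z and 0 lower, with a list median of 0.35 beside −0.0016 for all genes tested. These were Lrp1, an endocytic receptor of midkine (19.7 and 20.6 CPM in WT, 108 and 96.9 in Z/Z, log2 difference 2.35 ± 0.16), Nrp1, a co-receptor of several growth factors (14.1 and 10.3 against 63.2 and 47.5 CPM, 2.14 ± 0.26), and Sdc2 (25.8 and 26.5 against 51.7 and 40.7 CPM, 0.82 ± 0.20). Their edgeR adjusted p-values were 0.00560, 0.00860 and 0.0396. In each, both Z/Z libraries were above both WT libraries, beside 67.3% of all genes without overlap.

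Of 20 genes that make or edit glycosaminoglycan chains or carry them, 9 were higher and 2 lower in Z/Z epithelium (median 0.52), beside 9.49% higher and 21.2% called over all genes. The heparan sulfate endosulfatase gene Sulf1 was 186 and 181 CPM in WT and 532 and 521 CPM in Z/Z (1.52 ± 0.14, edgeR adjusted p = 0.00674). Hs2st1, which adds sulfate to heparan sulfate, was 253 and 272 against 699 and 676 CPM (1.39 ± 0.15, adjusted p = 0.00776). Ndst1 and Ext1, which modify and extend the chains, were higher by 1.26 ± 0.17 and 0.80 ± 0.16 (edgeR adjusted p = 0.0101 and 0.0240). The lower genes were Hs6st2 (18.6 and 40.4 against 1.63 and 5.14 CPM) and Xylt1, which starts the chain (108 and 87.9 against 63.9 and 63.8 CPM). Dcn, counted among the 9, is also one of the fibroblast markers, whose sum was higher in Z/Z epithelial cells as given above.

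Of 11 signalling partners, 5 were higher and 0 lower (median 0.70, with 9.49% of all genes higher), led by the kinase gene Fyn with 14.4 and 11.9 CPM in WT and 45.7 and 37.4 CPM in Z/Z (1.64 ± 0.22, edgeR adjusted p = 0.0102). Ptpn11, Plcg1 and Pik3r1 were higher by 0.78 ± 0.15, 0.92 ± 0.20 and 0.72 ± 0.18 (adjusted p = 0.0240, 0.0322 and 0.0408 by edgeR). Of 9 syndecan partners and sheddases, Sdcbp, the gene of syntenin (1.004 ± 0.15), and Mmp14 (0.54 ± 0.14) were higher, and Prkca (−0.68 ± 0.14) and the sheddase gene Adam17 (−0.75 ± 0.15) lower (edgeR adjusted p = 0.0132, 0.0462, 0.0259 and 0.0261), with a list median of −0.12.

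In fibroblasts only Nrp1 and Adam10 were called from these lists, both lower in Z/Z, where 2.87% of all genes were called. Nrp1 was 351 and 426 CPM in WT and 201 and 191 CPM in Z/Z (−0.98 ± 0.16, edgeR adjusted p = 0.0149). Its genotype difference in epithelial cells was 2.97 ± 0.35 log2 units above that in fibroblasts, by the same interaction test as for the members (adjusted p = 7.01e-05 by edgeR). Adam10 was 76.8 and 79.3 against 43.4 and 45.6 CPM (−0.81 ± 0.15, adjusted p = 0.0254). The fibroblast list medians were −0.09 for receptors, 0.14 for glycosaminoglycan genes, 0.05 for signalling partners and −0.11 for syndecan partners, beside 0.01 for all genes. In endothelial cells Csgalnact1 (−1.10 ± 0.22, edgeR adjusted p = 0.0319) and Pik3r1 (−0.90 ± 0.20, adjusted p = 0.0471) were lower, where 1.77% of all genes were called, and no listed gene was called in mural cells.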

How the data were processed

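The deposited files hold UMI counts per gene and cell, which the authors made with Cell Ranger (version 7.01 per the submitters' processing notes) from 3′ droplet libraries, filtered and unfiltered. Deposited run summaries from the same tool give percent values, of which sequencing saturation was read and entered no test. Filtered barcodes with more than 1000 genes and at most 20% mitochondrial UMIs were kept, and the 3.9% with the highest doublet score per library were removed. Counts scaled to 10000 per cell were log-transformed (pseudocount 1). Then 3500 variable genes without the 173 held-out genes (members, listed genes, markers and Foxn1) were reduced to 35 principal components (45 for epithelial cells). Cells were clustered by Leiden partition (leidenalg 0.10.2, 20 neighbours), at resolution 1 for lineages and epithelial clusters. Fibroblast, endothelial and mural clusters were made at resolution 0.5. No batch correction was applied. Names are rebuilt from marker lists, carry the suffix -like, and may differ from the annotation of the study. For aaTEC2-like cells, shares of cells, UMI percentages and leave-out tests use the 947 cells so named among the lineage clusters. Their levels by cluster use the 905 cells of epithelial cluster 1.

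UMI sums per library and lineage were tested with edgeR 4.0.16 in R 4.3.3 (quasi-likelihood F test, TMM factors, filterByExpr, two-sided, Benjamini-Hochberg adjusted p of 0.05 over all genes tested). Lineages were compared with the library as a block, and the genotype by lineage interaction in the same kind of fit. The scripts were tested on simulated data. Printed CPM of members use the total of the sum, and CPM of other genes and of Foxn1 also use TMM factors. The spread between 2 libraries per genotype may be technical in part. The members, lists and rules were chosen with earlier results of these data known. All 10 members are named, up to 4 called genes per list and lineage with the smallest adjusted p, and the 3 genes most correlated with Ptn, Mdk, Sdc1 and Sdc4. Beyond that rule, the lower glycosaminoglycan genes in epithelial cells (Hs6st2 and Xylt1) and Dcn are named too. Levels by cluster need 20 cells in a library. The expected background is the profile of droplets with fewer than 100 UMIs, scaled to an estimated share of each sum. For each marker list of the other lineages, its part of the sum was divided by its part of that profile. The lowest ratio was the share, so marker UMIs of any other origin also count as background. Positions are from the GENCODE annotation and promoters from RefSeq, both on GRCm38. Alternatives were DESeq2 1.42.0, other size factors, no count filter, thinning, subtraction of the background, a limit of 500 genes, no doublet removal, shared barcodes left out, other resolutions and each library left out.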

Additional observations from a re-analysis of the deposited data

Results flagged for a closer look

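The genotype difference of Ptn was 2.97 log2 units higher in epithelial cells than in fibroblasts, and that of Alkal2 was 2.30 higher. Both were singled out because the interaction of genotype and lineage passed the threshold in edgeR (adjusted p = 0.00302 and 0.0155). Ptn passed it under every alternative run, with values from 2.02 to 4.01. Alkal2 lost the call without WT replicate 1 (1.89, adjusted p = 0.231) and without Z/Z replicate 1 (1.61, adjusted p = 0.221), and turned to −1.73 without aaTEC2-like cells and the capsular-like cluster. In WT 1, the summed epithelial level of Ptn was that expected from empty droplets (17.1 measured and 17.8 CPM expected). Of the 199 UMIs in that sum, 50 were in 7 aaTEC1-like cells.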

How the results depend on the processing

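Of 221 alternative values of members between genotypes, 198 kept direction and side of the threshold, 12 passed it newly, 6 lost it and 5 changed sign, and of 252 between lineages 248 kept both. With each library left out in turn the lone library of a genotype is assumed to vary like the others.

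Genes called between genotypes in epithelial cells were 2267 with the replicate block, 1 without shared barcodes and 1296 to 4019 with a library left out. In fibroblasts they were 1315 without the count filter, 192 with thinned cells, 156 without shared barcodes and 160 to 1006 with a library left out. In endothelial cells they were 754 without the filter, 313 with the block, 36 thinned, 109 at 500 genes, 22 without shared barcodes and 81 to 196. In mural cells DESeq2 called 0 (edgeR 2, with 616 genes at an unadjusted p under 0.05), and the count was 14 with RLE factors, 78 without the filter, 18 with the block, 15 thinned, 14 with empty-droplet UMIs subtracted, 50 at 500 genes, 1 without doublet removal and 0 to 399 with a library left out. With thinned cells the lineage pairs gave 4837 (epithelial and fibroblast), 4515 (epithelial and endothelial), 4146 (epithelial and mural) and 3365 (fibroblast and mural), and with a library left out 5871 to 8356, 5157 to 7902, 4823 to 7343, 3922 to 6416 (fibroblast and endothelial), 2889 to 5595 and 3501 to 6039 (endothelial and mural). Interactions against fibroblasts gave 1196 thinned, 841 without shared barcodes and 564 to 2181 in epithelial cells, 280 without the filter, 22 without shared barcodes and 19 to 80 in endothelial cells, and 152 without the filter, 25 thinned, 4 without shared barcodes and 9 to 41 in mural cells.

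Without shared barcodes, epithelial Mdk (1.59), Alkal2 (4.77) and Sdc4 (1.31) lost their calls with fewer and shallower cells, and Ptprz1 turned to −0.56. Without aaTEC2-like cells Alkal2 was 0.71. With a library left out, fibroblast Mdk ranged from 1.001 to 1.32 and Alkal2 from 1.503 to 2.12, and epithelial Mdk from 1.72 to 2.08, Alkal2 from 3.51 to 4.66, Sdc4 from 1.60 to 1.71, Ptn from 1.27 to 3.61 and Alk from −0.71 to 0.50. Alk was 0.063 with background subtracted and 0.040 at 500 genes. Sdc4 of mural cells over fibroblasts lost its call with background subtracted (adjusted p = 0.0504), and Alkal2 of epithelial over endothelial cells without Z/Z replicate 2 (adjusted p = 0.0595). The interaction of Alkal2 became −1.73 without aaTEC2-like and capsular-like cells and ranged from 1.61 to 2.89 with a library left out. That of Ptprz1 ranged from −2.07 to 0.43 and that of Ncl from −0.48 to 0.087. That of Sdc1, not called, was −0.21 thinned, −0.17 without shared barcodes, −0.0020 without the shallower copies and −0.044 to 0.086. The share difference of Alk was 0.271 points at 1000 UMIs, and that of Ncl −5.49 without thinning and −0.645 at 1000 UMIs. At double resolution Alkal2 in the aaTEC2-like cluster was 173 CPM, Sdc4 there 515 CPM and Sdc4 in the capsular-like cluster 76.4 CPM. The cause of these changes was not tested.

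Equal replicate numbers mark no shared animals in the labels. The deviations of same-numbered libraries correlated at −0.0993 in epithelial cells, −0.0554 in fibroblasts, −0.0133 in endothelial cells and −0.0033 in mural cells. These values cannot decide whether the samples were paired, since counting noise in the shallow WT 2 also brings such correlations toward 0. The replicate block changed no member's call, with adjusted p = 0.0193 for Mdk, 0.0228 for Alkal2 and 0.0202 for Sdc4 in epithelial cells by edgeR. Alkal1 and Ltk had too few UMIs to be tested, and every mural value of WT 2 rests on 7 cells. Alternatives without shallower copies, aaTEC2-like cells or the capsular-like cluster, and the interactions without shared barcodes, were chosen after seeing the data.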

Other observations

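A cluster outside the 4 lineages held 115 cells in Z/Z 1, 37 in Z/Z 2 and none in WT. Its leading genes were Trpm3, Dbi and Ndrg2, and it was left without a name. Its best list was that of non-myelinating Schwann cells (score 0.892), with 2 markers detected where a name needed 3. It had 913 and 1010 CPM of Ptn, 219 and 322 CPM of Mdk, 95.7 and 114 CPM of Ptprz1 and 2345 and 1551 CPM of Sdc4, whereas Alkal2 was 5.203 and 4.07 CPM. In Z/Z 1 its 2253 Sdc4 UMIs were most of the 12.4% of that gene's UMIs found outside the 4 lineages. Mesothelial-like cells, 31 in Z/Z 2 and 10 in Z/Z 1, had 877 CPM of Sdc4 in Z/Z 2 and 9.61 CPM of Ptn.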
